A study of Mus musculus with 2 samples.

Results

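The semaphorin and plexin genes are the ligands and receptors of a guidance system that endothelial cells share with neurons. They were taken by gene symbol (Sema3a to Sema7a, the plexins of classes A to D, Plxdc1 and Plxdc2), and 31 of 32286 features matched: 20 semaphorins, 9 plexins and 2 plexin domain containing genes. The match itself used symbols only, but the members were chosen with earlier results of these data known. The values come from 2 single-cell RNA sequencing libraries of mouse lung, aKO and aWT, from a study of lineage-traced pulmonary endothelial cells in a model of hereditary hemorrhagic telangiectasia 2, an inherited disease of arteriovenous malformations. Both libraries were of C57BL/6J mice aged 10 to 12 weeks, and both were of cells sorted for the red reporter tdTomato, switched on by a Cre recombinase under the VE-cadherin promoter, which is active in endothelial cells. The labels name no deleted gene and do not give the time of Cre activity or the number of animals pooled in a library.

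Secreted class 3 semaphorins bind neuropilins, which pair with A-type plexins or plexin D1, while most transmembrane semaphorins of the other classes bind plexins directly. The plexin carries the signal into the cell through a domain that switches off small GTPases of the R-Ras and Rap families, and the cytoskeleton and integrin adhesion respond. In the vasculature the system is known for guiding sprouts, patterning vessels next to nerves, limiting vessel growth and setting lymphatic valves.

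The promoter of a gene is shown for 5 members whose levels carry the results below: Sema5a and Sema4c, higher in aKO capillary cells; Sema3c, lower in aKO general capillary cells; and the neighbours Sema3a and Sema3d, both concentrated in lymphatic cells. Each line is the 250 bases upstream of a RefSeq start on build GRCm38.p6, printed 5′ to 3′ on the gene's own strand. Capitals mark a match to 1 of 5 motifs searched on both strands: GGCGCC (a GC-rich element bound by SMAD proteins), TGANTCA (AP-1), AGGTCA (nuclear receptor half-site), TGGGAA (RBPJ core) and CGGAAG (ETS core).
Sema5a, chr15:32244563-32244812, plus strand: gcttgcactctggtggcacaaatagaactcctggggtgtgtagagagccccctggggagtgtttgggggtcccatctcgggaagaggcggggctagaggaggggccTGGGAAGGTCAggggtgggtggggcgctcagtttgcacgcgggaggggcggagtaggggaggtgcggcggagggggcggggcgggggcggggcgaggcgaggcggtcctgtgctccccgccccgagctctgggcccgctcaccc
Sema4c, chr1:36558382-36558631, minus strand: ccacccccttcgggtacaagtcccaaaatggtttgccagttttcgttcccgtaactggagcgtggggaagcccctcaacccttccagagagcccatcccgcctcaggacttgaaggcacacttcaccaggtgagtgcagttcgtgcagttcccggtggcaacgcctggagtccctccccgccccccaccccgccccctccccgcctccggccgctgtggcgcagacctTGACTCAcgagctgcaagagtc
Sema3c, chr5:17574566-17574815, plus strand: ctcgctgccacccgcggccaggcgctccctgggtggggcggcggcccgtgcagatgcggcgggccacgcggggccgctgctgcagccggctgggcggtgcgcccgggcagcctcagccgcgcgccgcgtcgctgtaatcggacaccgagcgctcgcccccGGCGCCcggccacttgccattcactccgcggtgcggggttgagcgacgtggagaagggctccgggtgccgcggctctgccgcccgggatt
Sema3a, chr5:13396534-13396783, plus strand: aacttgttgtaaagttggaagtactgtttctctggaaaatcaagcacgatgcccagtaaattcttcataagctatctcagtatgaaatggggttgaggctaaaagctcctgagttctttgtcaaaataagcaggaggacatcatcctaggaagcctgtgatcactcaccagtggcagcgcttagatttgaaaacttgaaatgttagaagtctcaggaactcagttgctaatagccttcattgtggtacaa
Sema3d, chr5:12382916-12383165, plus strand: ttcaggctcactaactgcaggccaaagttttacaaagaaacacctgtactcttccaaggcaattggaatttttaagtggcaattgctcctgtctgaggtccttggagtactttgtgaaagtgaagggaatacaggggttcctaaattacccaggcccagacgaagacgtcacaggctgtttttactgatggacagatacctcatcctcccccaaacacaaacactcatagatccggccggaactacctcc
The Sema5a window held TGGGAA and AGGTCA overlapping by 1 base, the Sema4c window held TGANTCA (read TGACTCA here) and the Sema3c window held GGCGCC. The Sema3a and Sema3d windows held none of these letters. The windows of Sema3a and Sema3d were poor in CpG, with 2 and 4 CpG dinucleotides, whereas those of Sema3c, Sema5a and Sema4c had 39, 17 and 15; the median of 32851 RefSeq windows was 6.00. GC content was 40.8% for Sema3a and 46.8% for Sema3d, against 78.4% for Sema3c, 72.0% for Sema5a, 64.4% for Sema4c and a median of 52.4%. Over the 24 members with a window, GGCGCC was found in 6 members (9.59% of all windows held it), TGANTCA in 3 (6.75%), AGGTCA in 6 (14%), TGGGAA in 6 (21.6%) and CGGAAG in 2 (13.6%). Several of these members had more than 1 window, 35 in all, which gives them more sequence in which to match. The Sema3a and Sema3c windows lie wholly inside the annotated spans of their genes, so for each another start is annotated further upstream. No window was used for Plxna1, Plxna4, Plxdc1, Plxdc2, Sema3b, Sema3f and Sema6a.

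The aKO library held 11045 barcodes and 75950364 UMIs (unique molecular identifiers, each counting 1 captured RNA molecule), and the aWT library 15996 barcodes and 72270260 UMIs. After filters 10335 aKO and 14647 aWT endothelial-like cells remained, with medians of 5750 and 3890 UMIs. Only 48 barcodes were shared by the libraries. Pan-endothelial markers defined these cells, and each was then given to a class by its scores for marker lists that hold no semaphorin, plexin or neuropilin: 2164 aKO and 7591 aWT cells were general capillary-like, 1325 and 2443 aerocyte-like (the thin capillary cells of the gas exchange surface), 1372 and 1245 arterial-like, 1136 and 1527 venous-like, and 1798 and 556 lymphatic-like. A class is a range of scores: 13.1% of aKO and 4.84% of aWT cells lay close to the margin, 24.6% of aKO and 8.77% of aWT cells stayed unclassed, and the general capillary-like cells had a median score for their own markers of 0.38 in aKO and 0.80 in aWT. In 15 of 25 clusters at least 90% of cells came from 1 library, and these clusters held 80.9% of endothelial-like cells. Most cells thus had no counterpart of the other library in their cluster. The libraries also differed in Xist, at 729 CPM in aKO and 4.15 CPM in aWT; sex, library and genotype cannot be told apart. Acvrl1, the gene of this disease type, was at 487 CPM in aKO and 1021 CPM in aWT endothelial-like cells, and 3′ reads do not show whether an upstream exon was deleted. RNA of other cells differed too: summed alveolar type 2 markers were 100.1 CPM in aKO and 267 CPM in aWT, and immune markers 4.55 and 45.8 CPM, while fibroblast markers were 51.1 and 18.2 CPM. Of 21 dissociation stress genes, 0 were past 2-fold higher and 5 lower in aKO, with a median log2 ratio of -0.28; within classes the number lower and the median were 7 and -0.47 in general capillary-like, 3 and -0.23 in aerocyte-like, 4 and -0.61 in arterial-like, 6 and -0.68 in venous-like, and 6 and -0.47 in lymphatic-like cells. The part of these in the differences given here was not tested.

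Levels are given as CPM, a gene's UMIs scaled to a fixed total of UMIs in the class and library, with an exact 95% Poisson interval, and differences as log2 of the aKO level plus 5 CPM over the aWT level plus 5 CPM. There is 1 library of each kind, so no difference has a replicate check or a test, and intervals cover counting error only. Members were read as measured at a mean of 10 CPM over the libraries and as higher or lower past 2-fold. On that scale 22 of the 31 members were measured in all endothelial-like cells or in a class. The other 9 were Sema3e, Sema4a, Sema4f, Sema4g, Sema5b, Sema6c, Plxna3, Plxnb1 and Plxnb3, none above 12.3 CPM in any class of either library. Plxna1, Plxna4, Sema4c, Sema5a, Sema6d, Plxnb1 and Sema3e overlap genes on the opposite strand, and whether counting used strand is not given in the sources used here. The values of all classes come from the same 2 libraries, so like differences in several classes are no separate evidence.

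Of the 22 measured members, 17 had their highest level in the same class in aKO and aWT. Sema3c and Sema6d were highest in general capillary-like cells, Sema7a, Sema3f, Plxna1, Plxna2 and Plxdc1 in aerocyte-like cells, Sema3g, Sema4b and Plxnd1 in arterial-like cells, Plxnc1 and Plxnb2 in venous-like cells, and Sema3a, Sema3d, Sema4d, Sema6b and Plxdc2 in lymphatic-like cells. In several of these the first 2 classes had overlapping intervals in aWT, for example arterial and general capillary for Sema3g and lymphatic and arterial for Plxdc2. The members whose top class differed were Sema4c, Sema5a, Sema6a, Sema3b and Plxna4.

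**Figure D1:**
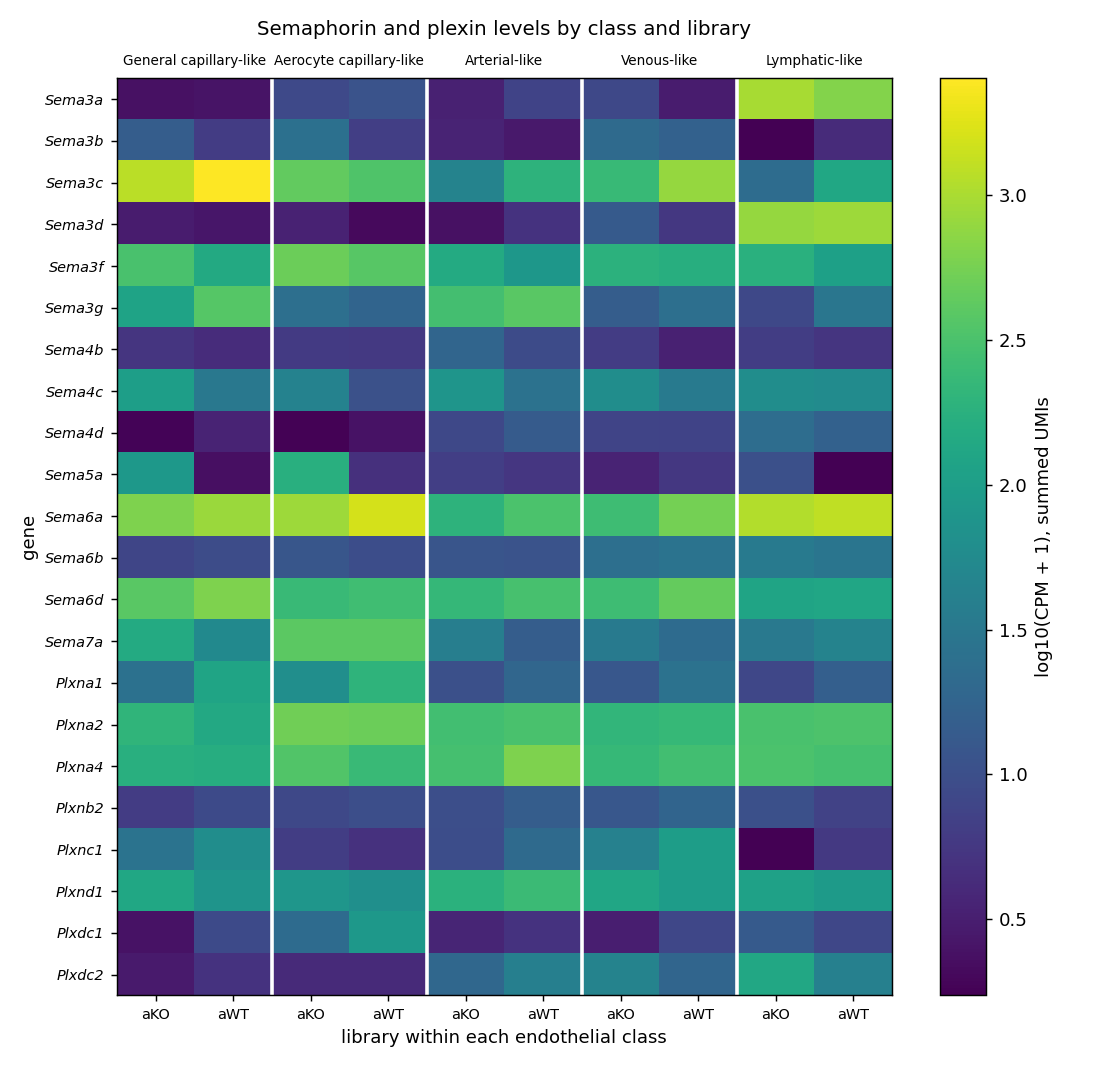
Levels of the 22 measured members (rows) in 5 endothelial classes, each with aKO left and aWT right; colour is log10(CPM + 1) of summed UMIs. Sema3a and Sema3d are bright in the lymphatic-like columns of both libraries, and Sema5a is bright in the capillary columns of aKO.

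Over all endothelial-like cells, 5 of 18 measured members were at least 2-fold higher in aKO (Sema3a, Sema3d, Sema4c, Sema5a and Plxdc2), where 4.14% of all 9226 measured genes were, and 5 were at least 2-fold lower (Sema3c, Sema3g, Plxna1, Plxnc1 and Plxdc1), where 2.36% of genes were. The median log2 ratio was 0.11 over the members and 0.09 over all genes, so the 2 directions balanced. The mixture of classes differed between the libraries: lymphatic-like cells were 17.4% of aKO and 3.80% of aWT endothelial-like cells, and general capillary-like cells were 20.9% and 51.8%. Such shares follow dissociation, sorting and filters as well as the tissue. When each class had equal weight, 2 of these members remained past 2-fold higher (Sema4c and Sema5a) and 3 lower (Sema3c, Plxna1 and Plxdc1). The classes are therefore taken one at a time.

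Sema5a, a transmembrane semaphorin with thrombospondin repeats, had the widest gap between the libraries among measured members in both capillary classes. Its level in general capillary-like cells was 83.0 CPM in aKO (1074 UMIs, 95% interval 78.1 to 88.1) and 1.30 CPM in aWT (40 UMIs, 0.930 to 1.77), a log2 ratio of 3.80. In aerocyte-like cells it was 171 CPM in aKO (1263 UMIs, 162 to 181) and 3.77 CPM in aWT (43 UMIs, 2.73 to 5.08), a log2 ratio of 4.33. The aKO intervals lay far above the aWT intervals in both. In the large vessel classes both libraries were low, with 5.72 CPM in aKO and 4.4 CPM in aWT arterial-like cells. Venous-like cells had 2.52 CPM in aKO and 4.69 CPM in aWT. The main arterial clusters still differed, with 8.69 CPM in aKO cluster 3 (102 UMIs, 7.09 to 10.6) and 0.191 CPM in aWT cluster 11 (1 UMI). Of the cells of cluster 3, 60.0% were arterial-like. Arterial cluster 15, found in both libraries, had 3.38 CPM in aKO and 5.31 CPM in aWT. Lymphatic-like cells had 9.19 CPM in aKO and 0.726 CPM in aWT, the aWT value resting on 2 UMIs, for a ratio of 12.6 with a counting interval of 3.43 to 106. The aKO value was 11.1% of the general capillary level, where the general capillary markers had a median of 7.19% in lymphatic-like cells (1.90% to 53.7%). The aWT value was 55.8% of the general capillary level, above the aWT marker range of 4.45% to 29.9%. Lymphatic cluster 7 had 9.77 CPM in aKO and 0 UMIs in aWT. Cluster 14 had 5.62 CPM in aKO (36 UMIs) and 11.8 CPM in aWT (9 UMIs). Most of those 9 UMIs lay outside the lymphatic-like class, though 146 of the 150 aWT cells of cluster 14 were in it. The aWT value of cluster 14 therefore gives no order of the libraries for lymphatic-like cells.

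Clusters of cells, numbered as they came from the clustering, placed the Sema5a signal more finely. Cluster values cover all endothelial-like cells of a cluster, whatever their class. Cluster 1, with 84.9% of aKO general capillary-like cells, had 80.6 CPM in aKO, and clusters 0, 4, 9 and 12, which together held most of those of aWT, had 0.645, 1.11, 0.646 and 5.98 CPM in aWT. Cluster 13, the main aKO aerocyte-like cluster, had 198 CPM in aKO, against 3.57 CPM in aWT in cluster 2, the main aWT one. Sema5a was among the 10 leading genes of cluster 1. Each of these capillary clusters had at least 99.0% of its cells from 1 library, so comparing them again sets aKO against aWT. In aWT the gene was not at the same low level everywhere: cluster 10 had 1.25 CPM in aKO (13 UMIs) and 36.5 CPM in aWT, with 64 of the 215 endothelial-like UMIs of that library, so there the order of the libraries was the other way. Part of it lay in cells outside the venous-like class, which had 40 Sema5a UMIs in aWT in all. Cluster 10 had no venous marker among its 10 leading genes, though its mean venous score was 1.43.

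The share of cells with a Sema5a UMI followed the same order after each cell was thinned to 2000 UMIs. It was 10.8% of 2042 aKO (9.46 to 12.2, exact Clopper-Pearson) and 0.232% of 6897 aWT general capillary-like cells (0.133 to 0.376), and without thinning 18.4% in aKO and 0.356% in aWT. Among aerocyte-like cells it was 19.5% of 1203 in aKO (17.3 to 21.9) and 0.746% of 2144 in aWT (0.427 to 1.21), or 30.8% in aKO and 0.941% in aWT without thinning. Alveolar type 2-like cells, taken as a type outside the vasculature, had a UMI in 1 of 16 aKO cells (6.25%, 0.158 to 30.2) and in 0 of 102 aWT cells, which allows a share of up to 2.94%; unthinned these were 17.6% and 2.88%. Their median depths of 16012 UMIs in aKO and 15963 in aWT compare with 5624 and 3765 in general capillary-like cells. Both aWT capillary shares were below the limit set by the aWT alveolar cells, so background of that size cannot be told apart from expression, and the few aKO alveolar cells leave a wide interval that includes both aKO capillary shares. The aWT signal was not even over clusters, however, with 27 UMIs at 5.98 CPM (3.94 to 8.70) in aWT cluster 12 and 10 UMIs at 0.645 CPM (0.309 to 1.19) in aWT cluster 0. By level, aKO alveolar type 2-like cells had 30.1 CPM of Sema5a (7 UMIs, 12.1 to 62.0), below both aKO capillary classes.

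**Figure D2:**
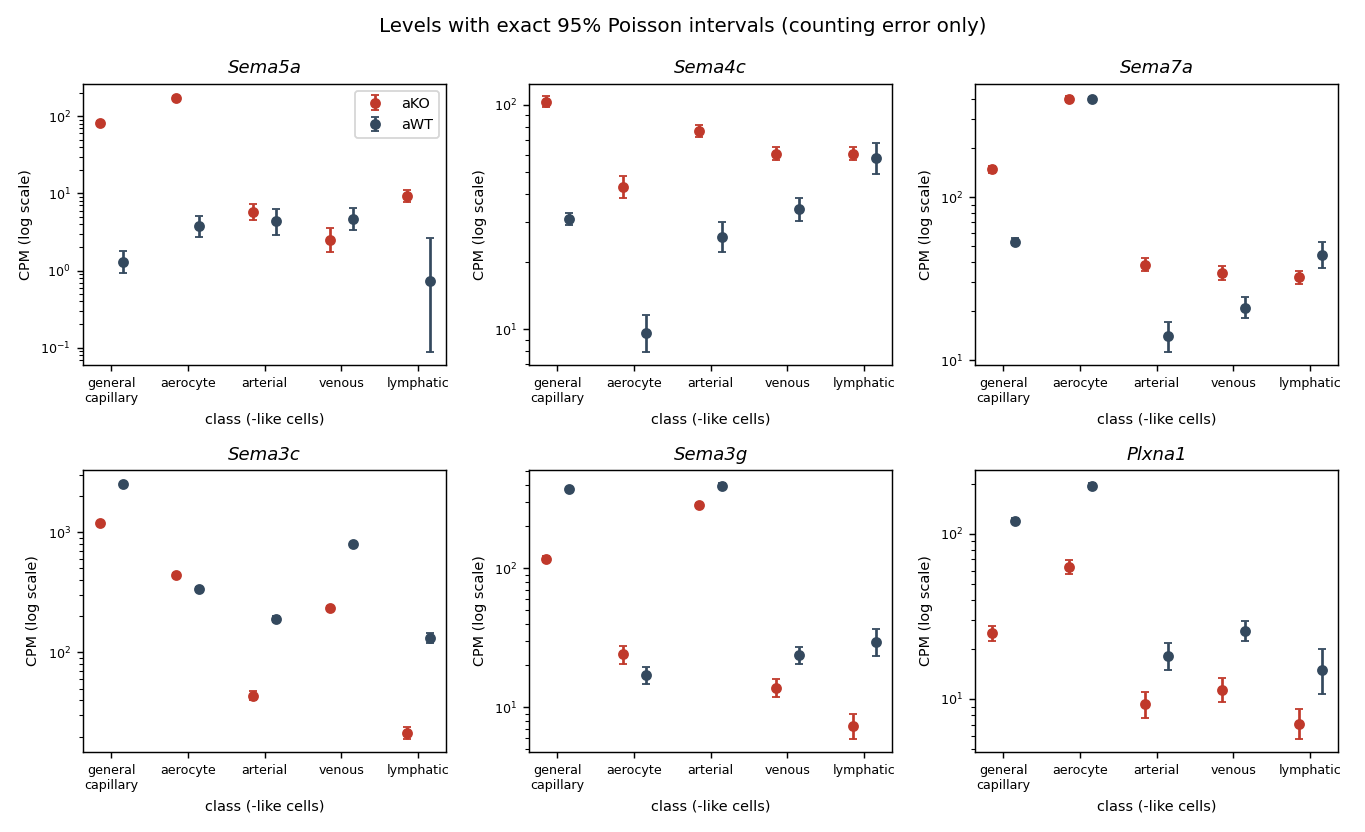
CPM on a log axis in each class for Sema5a, Sema4c, Sema7a, Sema3c, Sema3g and Plxna1, aKO left of aWT, with exact 95% Poisson intervals that cover counting error only. Sema5a separates the libraries in both capillary classes, and Sema7a in general capillary-like but not in aerocyte-like cells.

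In general capillary-like cells, 4 of 13 measured members were higher in aKO (2.38% of 8797 genes were) and 4 were lower (2.34% were); the median was 0.07 over the members and 0.09 over all genes. Beside Sema5a, the higher ones were Sema4c, Sema7a and Sema3f. Sema4c, a ligand of B-type plexins, was at 103 CPM in aKO (1335 UMIs, 97.7 to 109) and 31 CPM in aWT (953 UMIs, 29.1 to 33.1), a log2 ratio of 1.59. The 4 main aWT clusters lay between 29.5 and 31.5 CPM, all below the 103 CPM of aKO cluster 1. Sema7a, a membrane-anchored ligand of plexin C1 and integrins, was at 148 CPM in aKO (1915 UMIs, 141 to 155) and 53.3 CPM in aWT (1639 UMIs, 50.8 to 56.0), a log2 ratio of 1.39. Here too no aWT cluster, at 50.4 to 59.5 CPM, came near the 154 CPM of aKO cluster 1. Sema3f, a secreted ligand that prefers neuropilin 2, was at 314 CPM in aKO (4057 UMIs, 304 to 323) and 142 CPM in aWT (4376 UMIs, 138 to 147), a log2 ratio of 1.11.

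The general capillary members that were lower included 2 secreted ligands and 2 receptors. Sema3c, which signals through neuropilins with plexins A and D1, was at 1195 CPM in aKO (15456 UMIs, 1176 to 1214) and 2531 CPM in aWT (77752 UMIs, 2513 to 2549), a log2 ratio of -1.08. The aWT clusters were far apart for this gene, with 2738, 2342, 644 and 3856 CPM in clusters 0, 4, 9 and 12, so that aKO cluster 1 at 1184 CPM lay within their range. Sema3g, a class 3 ligand best known from arteries, was at 116 CPM in aKO (1506 UMIs, 111 to 122) and 372 CPM in aWT (11427 UMIs, 365 to 379), a log2 ratio of -1.63. For Sema3g the aWT clusters, 306 to 521 CPM, all lay above the 106 CPM of aKO cluster 1. Plxna1, a receptor for class 3 and class 6 semaphorins, was at 25.0 CPM in aKO (323 UMIs, 22.3 to 27.8) and 120.4 CPM in aWT (3700 UMIs, 117 to 124), a log2 ratio of -2.07, with 21.8 CPM in aKO cluster 1 and 113 to 124 CPM in the aWT clusters. Plxnc1, the plexin that binds Sema7a, was at 26.8 CPM in aKO (347 UMIs, 24.1 to 29.8) and 60.6 CPM in aWT (1862 UMIs, 57.9 to 63.4), a log2 ratio of -1.04; it was -0.94 when a wider score margin set the class. Thus Sema7a was higher and its receptor Plxnc1 lower in the same aKO class. Cluster 17, of whose cells 28.5% were general capillary-like, led with immune and alveolar type 1 genes, and leaving its cells out moved none of these ratios across 2-fold.

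In aerocyte-like cells, 3 of 14 measured members were higher in aKO (2.17% of 8581 genes were) and 2 were lower (1.27% were), with a median of 0.30 over the members and 0.08 over all genes. Sema4c was at 43.2 CPM in aKO (319 UMIs, 38.6 to 48.2) and 9.65 CPM in aWT (110 UMIs, 7.93 to 11.6), a log2 ratio of 1.72. The gap was narrower between the main clusters, with 26.1 CPM in aKO cluster 13 and 9.21 CPM in aWT cluster 2. Of the aKO aerocyte-like cells, 15.3% lay in cluster 1, whose largest class was general capillary-like. In aerocyte-like cells the general capillary markers had a median of 16.8% of the general capillary level in aKO (8.25 to 66.3). In aWT it was 4.41% (3.71 to 59.2). The part of this in the class differences was not tested. Sema3b, a secreted neuropilin ligand, was at 24.5 CPM in aKO (181 UMIs, 21.1 to 28.4) and 5.70 CPM in aWT (65 UMIs, 4.4 to 7.27), a log2 ratio of 1.46. The lower ones were the receptor Plxna1 and Plxdc1, known as tumour endothelial marker 7. Plxna1 was at 63.1 CPM in aKO (466 UMIs, 57.5 to 69.1) and 195 CPM in aWT (2224 UMIs, 187 to 203), a log2 ratio of -1.55. Plxdc1 was at 21.1 CPM in aKO (156 UMIs, 17.9 to 24.7) and 82.3 CPM in aWT (938 UMIs, 77.1 to 87.7), a log2 ratio of -1.74, and the main clusters had the same order at 23.6 CPM in aKO and 82.0 CPM in aWT.

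Sema7a gave a different picture in the aerocyte-like class, where it had its highest level. It was at 399.9 CPM in aKO (386 to 415) and 402 CPM in aWT (390.2 to 414), intervals that overlapped almost wholly, although in general capillary-like cells it was well above 2-fold higher in aKO. Sema6a, a transmembrane ligand of plexins A2 and A4, was at 859 CPM in aKO (6341 UMIs, 838 to 880.0) and 1571 CPM in aWT (17907 UMIs, 1548 to 1594), a log2 ratio of -0.87 and so within 2-fold. Its receptors stayed closer: Plxna2 was at 516 CPM in aKO and 495 CPM in aWT, and Plxna4 at 347 CPM in aKO and 241 CPM in aWT. Of the 3 measured A-type plexins, Plxna1 was thus the one past 2-fold in the capillary classes. Alveolar type 2-like cells, whose RNA was more abundant in the aWT suspension, had 21.5 CPM of Plxna1 in aKO (5 UMIs) and 11.3 CPM in aWT, below the aWT capillary levels.

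**Figure D3:**
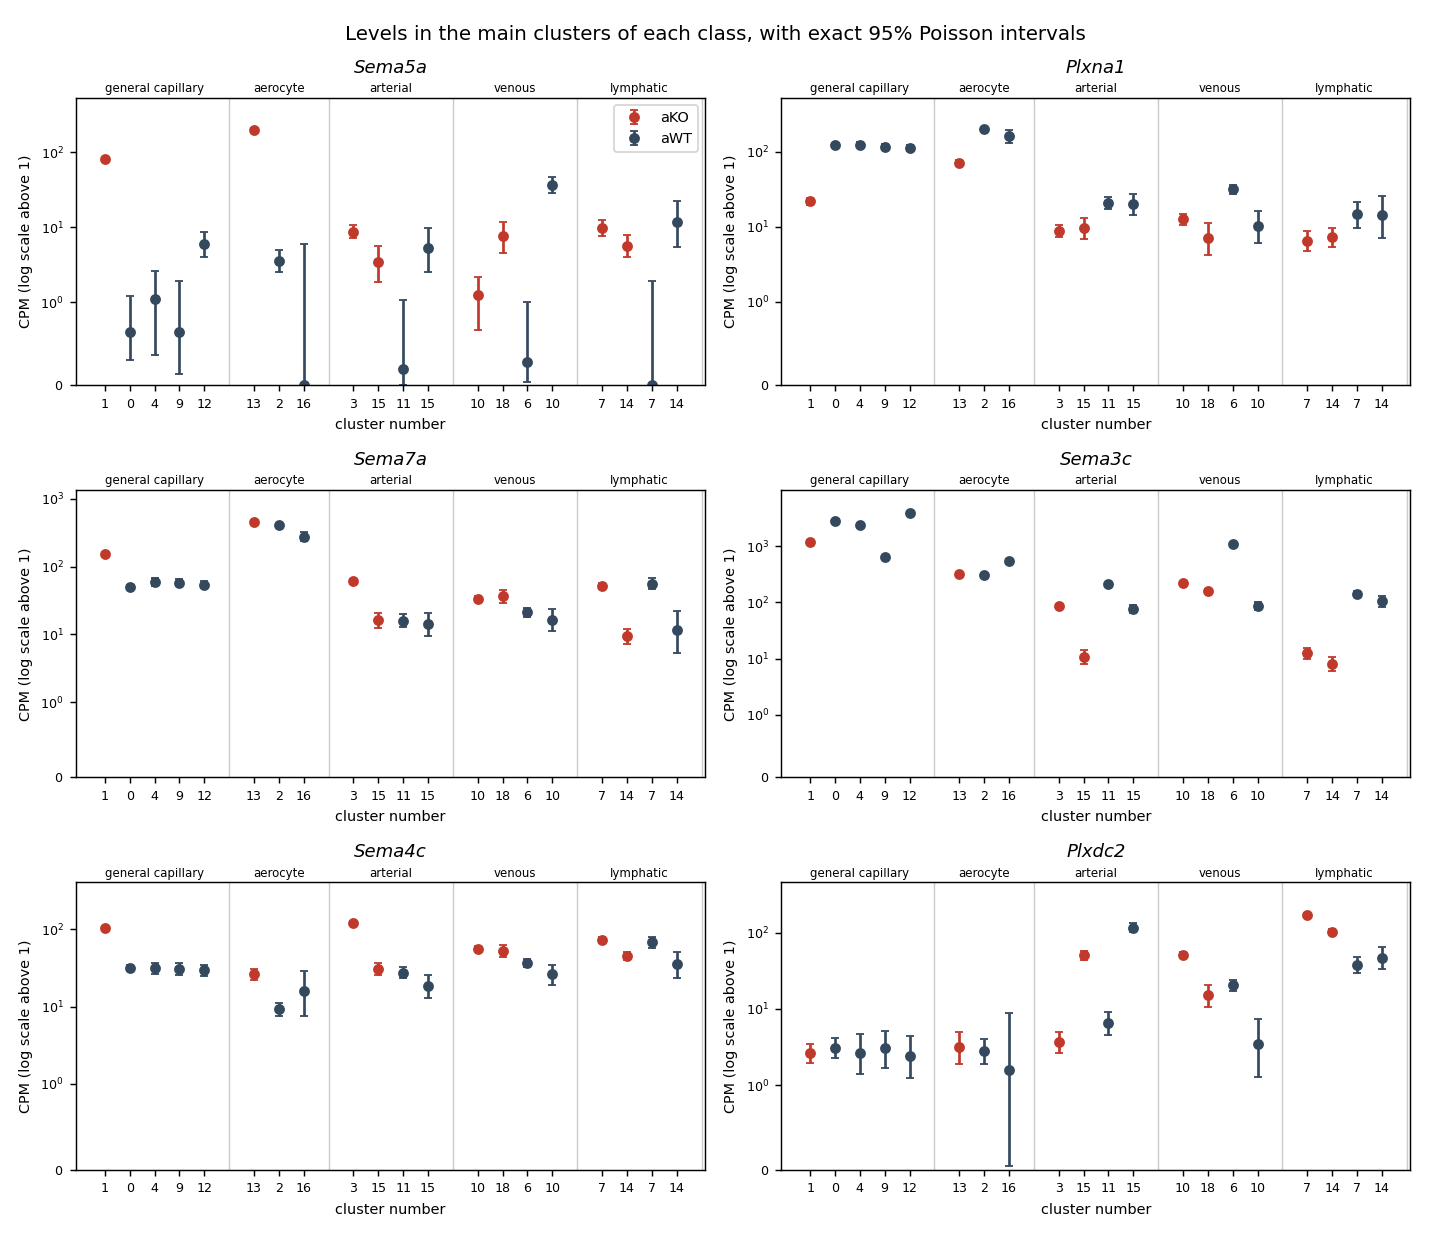
CPM (log scale above 1, exact 95% Poisson intervals) of Sema5a, Plxna1, Sema7a, Sema3c, Sema4c and Plxdc2 in the main clusters of each class, aKO clusters left of aWT clusters within a class. For Plxna1 the 4 aWT general capillary clusters lie at 113 to 124 CPM, above the 21.8 CPM of aKO cluster 1, while for Sema3c the aWT clusters spread over a wide range.

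In arterial-like cells, 2 of 17 measured members were higher in aKO (2.94% of 9007 genes were) and 2 were lower (2.83% were); the median was -0.46 over the members and 0.03 over all genes. The class was made of cluster 3 in aKO (65.7% of its cells), cluster 11 in aWT (66.2%) and cluster 15 in both (27.4% in aKO, 20.8% in aWT). Sema4c was at 76.6 CPM in aKO (990 UMIs, 71.9 to 81.5) and 25.9 CPM in aWT (165 UMIs, 22.1 to 30.2), a log2 ratio of 1.40. Sema7a was at 38.5 CPM in aKO (498 UMIs, 35.2 to 42.1) and 14 CPM in aWT (89 UMIs, 11.2 to 17.2), a log2 ratio of 1.20, or 0.90 with doublets kept. Both gaps lay mainly between the 2 clusters of single libraries. Their values include cells outside the class: 60.0% of the cells of cluster 3 were arterial-like, 75.7% of cluster 11 and 95.9% of cluster 15. Sema4c was at 122 CPM in aKO cluster 3 and 27.6 CPM in aWT cluster 11, but in the shared cluster 15 at 30.6 CPM in aKO and 18.6 CPM in aWT. Sema7a was at 61.5 CPM in aKO cluster 3 and 16 CPM in aWT cluster 11, but in cluster 15 at 16.2 CPM in aKO and 14.3 CPM in aWT.

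The 2 arterial members that were lower kept that order within cluster 15. Plxna4, a receptor for Sema3a and Sema6a, was at 293 CPM in aKO (3783 UMIs, 283 to 302) and 622 CPM in aWT (3957 UMIs, 602 to 641), a log2 ratio of -1.07 that came to -0.91 over the clusters shared by both libraries and to -0.99 by the mean over cells or after thinning. In cluster 15 it was at 410.1 CPM in aKO and 851 CPM in aWT. Sema3c was at 43.7 CPM in aKO (565 UMIs, 40.2 to 47.5) and 190.4 CPM in aWT (1212 UMIs, 179.8 to 201), a log2 ratio of -2.0, and at 10.9 CPM in aKO and 76.4 CPM in aWT in cluster 15. These Sema3c levels were 3.66% of the general capillary level in aKO and 7.52% in aWT, and the general capillary markers themselves stood at 1.48% to 143% and at 4.57% to 188% there; how much of it was RNA from capillary cells was not tested. Sema3g, by contrast, was highest in this class, at 284 CPM in aKO (275 to 293) and 393 CPM in aWT (378 to 409), and in cluster 15 the libraries had 224 CPM in aKO and 231 CPM in aWT. Plxnd1, the receptor for Sema3e and, with neuropilin, for Sema3c, was also highest in this class, with 182 CPM in aKO and 247 CPM in aWT, within 2-fold.

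Venous-like cells are given by cluster, because cluster 10 had the fibroblast gene Col3a1 and no venous marker among its 10 leading genes. Clusters 1, 7 and 11, among others, likewise had no marker of their own class there. The mean venous score was 1.43 in cluster 10 and 1.17 in cluster 6. It held 74.5% of aKO and 13.2% of aWT venous-like cells, whereas cluster 6 held 77.3% of those of aWT. Summed fibroblast markers were 199 CPM in aKO and 41.8 CPM in aWT in the whole class, and summed proliferation markers were 589 and 85.3 CPM; their part in the differences was not tested. Taken as a class, 1 of 16 measured members was higher in aKO (Plxdc2; 4.59% of 9089 genes were) and 3 were lower (Sema3c, Sema6a and Plxnc1; 2.86% were), with medians of -0.22 over the members and 0.06 over all genes. The class log2 ratios were 1.12 for Plxdc2, -1.74 for Sema3c, -1.03 for Sema6a and -1.15 for Plxnc1; that of Sema6a was within 2-fold with TMM scaling factors (-0.99), after thinning to 2000 UMIs (-0.91) and in shared clusters (-0.34). Within cluster 10 Plxdc2 was at 51.4 CPM in aKO and 3.42 CPM in aWT, and aWT cluster 6 was at 20.5 CPM. Sema3c turned round: it was at 223 CPM in aKO and 85.0 CPM in aWT in cluster 10, while aWT cluster 6 had 1088 CPM, so the lower class value of aKO came from the comparison with that cluster. Plxnc1 was at 43.9 CPM in aKO and 61.0 CPM in aWT in cluster 10, with 109 CPM in aWT cluster 6, and Sema6a at 277 CPM in aKO and 352 CPM in aWT, with 616 CPM in aWT cluster 6. The receptor gene Plxnc1 had its highest class level in venous-like cells of both libraries, 41.4 CPM in aKO (542 UMIs, 38.0 to 45.0) and 97.7 CPM in aWT (833 UMIs, 91.2 to 105).

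Lymphatic-like cells shared the clusters best, with cluster 7 (50.3% of aKO and 64.2% of aWT cells) and cluster 14 (43.9% and 26.3%) in both libraries. Of 16 measured members, 1 was higher in aKO (0.978% of 9199 genes were) and 2 were lower (1.47% were), and the median was 0.00 over the members and 0.04 over all genes. Sema3a, a secreted ligand that acts through neuropilin 1 and plexins A, and its relative Sema3d lie near each other on chromosome 5 (build GRCm38, Sema3d at 12383385 to 12588948 and Sema3a at 13125414 to 13602565, both on the plus strand) together with Sema3e and Sema3c further along. Sema3a was at 965 CPM in aKO (12921 UMIs, 948 to 982) and 659 CPM in aWT (1815 UMIs, 629 to 690.1), a log2 ratio of 0.55. Sema3d was at 801 CPM in aKO (10732 UMIs, 786 to 817) and 867 CPM in aWT (2387 UMIs, 832 to 902), a log2 ratio of -0.11. Both were thus within 2-fold in the class that held nearly all of their UMIs: of the UMIs in classed cells, 98.5% in aKO and 89.1% in aWT for Sema3a, and 97.9% in aKO and 94.9% in aWT for Sema3d.

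Over all endothelial-like cells the same genes were far apart, Sema3a at 188 CPM in aKO (13167 UMIs, 185 to 192) and 33.4 CPM in aWT (2098 UMIs, 32.0 to 34.8), and Sema3d at 157 CPM in aKO (10994 UMIs, 154 to 160.2) and 40.3 CPM in aWT (2535 UMIs, 38.8 to 41.9). Their log2 ratios there, 2.33 and 1.84, became 0.52 and -0.10 when each class had equal weight. The overall gap moved with the larger share of lymphatic-like cells in aKO. Between clusters Sema3a was at 753 CPM in aKO and 559 CPM in aWT in cluster 7, and at 1238 CPM in aKO and 955 CPM in aWT in cluster 14. Sema3d differed less between the clusters, at 773 CPM in aKO and 899.5 CPM in aWT in cluster 7, and 876 CPM in aKO and 857 CPM in aWT in cluster 14. Sema3a was therefore higher in cluster 14 than in cluster 7 in both libraries. After thinning, 64.0% of aKO and 56.2% of aWT lymphatic-like cells had a Sema3a UMI, and 69.4% of aKO and 73.8% of aWT cells had a Sema3d UMI. In alveolar type 2-like cells thinned alike, Sema3a was found in 0 of 16 aKO and 4 of 102 aWT cells (3.92%), and Sema3d in none of either. Without thinning, aWT had a Sema3a UMI in 6 of 104 of these cells (5.77%) and a Sema3d UMI in 4 (3.85%). Neither gene was found in the 17 aKO cells.

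Plxdc2, a relative of Plxdc1 whose protein is a surface receptor with a plexin-like domain, was the member that was higher in aKO lymphatic-like cells. It was at 135 CPM in aKO (1806 UMIs, 129 to 141) and 40.7 CPM in aWT (112 UMIs, 33.5 to 48.9), a log2 ratio of 1.61. The order held in both shared clusters, with 173 CPM in aKO and 37.5 CPM in aWT in cluster 7, and 103 CPM in aKO and 47.1 CPM in aWT in cluster 14. In arterial-like cells the order was the other way, with 18.6 CPM in aKO (16.3 to 21.1) and 38.6 CPM in aWT (34.0 to 43.8), most of it in cluster 15, which had 50.2 CPM in aKO and 116 CPM in aWT.

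Sema3c and Sema3g were the lymphatic members that were lower, from low levels. Sema3c was at 21.6 CPM in aKO (289 UMIs, 19.2 to 24.2) and 132 CPM in aWT (364 UMIs, 119 to 146), a log2 ratio of -2.37. Sema3g was at 7.32 CPM in aKO (98 UMIs, 5.94 to 8.92) and 29.4 CPM in aWT (81 UMIs, 23.4 to 36.6), a log2 ratio of -1.48. These levels were small parts of the general capillary level: 1.81% in aKO and 5.22% in aWT for Sema3c, and 6.29% in aKO and 7.91% in aWT for Sema3g. The 12 general capillary markers stood at a median of 7.19% in aKO (1.90 to 53.7) and 7.65% in aWT (4.45 to 29.9) in the same cells. In aKO the Sema3c value lay below all 12 markers and the Sema3g value below their median; in aWT both lay within the range of the markers, Sema3g above their median. How much of either signal came from capillary RNA was not tested. Sema6a was at 1079.6 CPM in aKO (14456 UMIs, 1062 to 1097) and 1272 CPM in aWT (3502 UMIs, 1229.8 to 1314), and Sema4c at 60.7 CPM in aKO and 57.7 CPM in aWT, so Sema4c, past 2-fold in 3 other classes, was near 1 to 1 here.

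**Figure D4:**
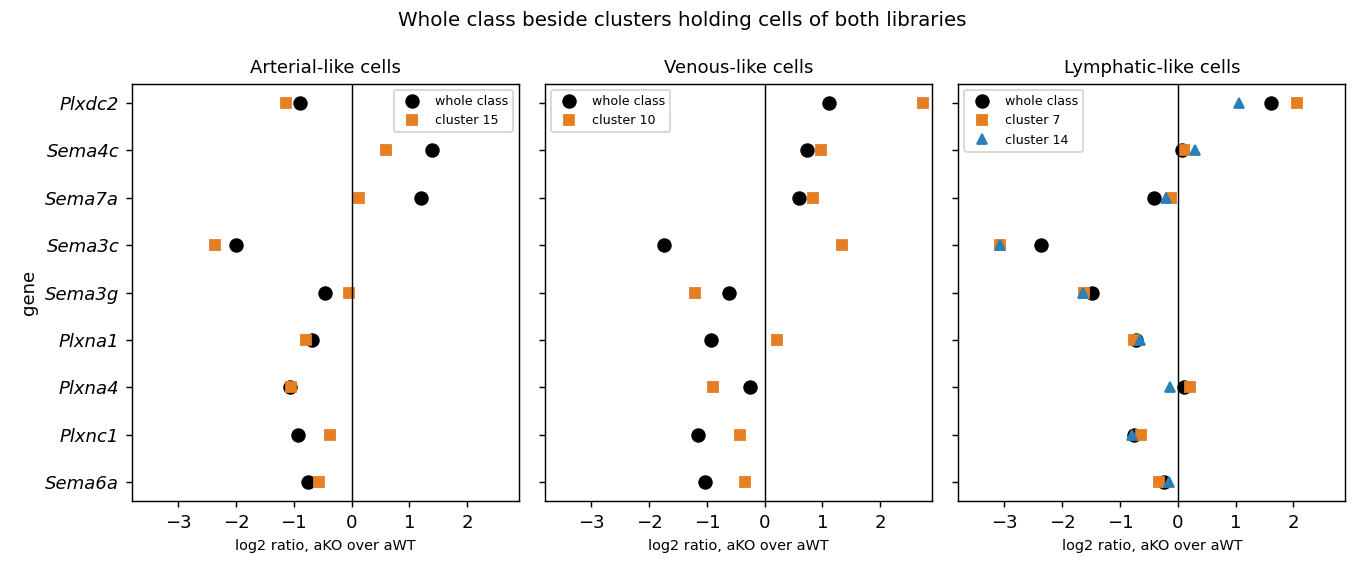
Log2 ratios of aKO over aWT for 9 members in the whole arterial-, venous- and lymphatic-like classes and within the clusters that both libraries share (15, 10, and 7 with 14). Sema3c turns to the other sign within cluster 10, while Plxdc2 stays higher in the lymphatic clusters and lower in arterial cluster 15.

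The remaining measured members differed by less than 2-fold after adding 5 CPM in each class where they were measured. Sema6d, a transmembrane ligand of plexin A1, was at 391 CPM in aKO and 609 CPM in aWT general capillary-like cells, and over all endothelial-like cells at 265 CPM in aKO and 477 CPM in aWT, a log2 ratio of -0.84. Sema6b, a related transmembrane ligand, was at 33.3 CPM in aKO and 28.0 CPM in aWT lymphatic-like cells. Sema4b, a transmembrane class 4 ligand, was at 17.5 CPM in aKO and 8.01 CPM in aWT arterial-like cells, a ratio of the plain levels of 2.18 (counting interval 1.60 to 3.02) and a log2 ratio after adding 5 CPM of 0.79. Sema4d, a ligand of plexins B1 and B2, was at 22.5 CPM in aKO and 15.6 CPM in aWT lymphatic-like cells. Plxnb2 was the B-type plexin that was measured, in venous-like cells at 11.6 CPM in aKO and 17 CPM in aWT and in arterial-like cells at 8.90 CPM in aKO and 14 CPM in aWT; Plxnb1 and Plxnb3 stayed below 1 CPM in every class. Sema3e, the direct ligand of plexin D1, was below the minimum in each class and in all endothelial-like cells, but not in unclassed cells. There it was at 0.295 CPM in aKO (3 UMIs) and 32.9 CPM in aWT (102 UMIs). The ratio was 0.00897 with a counting interval of 0.00182 to 0.0270, and the number of cells holding these UMIs is not given. Summed airway markers in unclassed cells also differed, at 16.1 CPM in aKO and 350.5 CPM in aWT, and their part was not tested. In the few barcodes that were not endothelial-like, Sema3e was at 166 CPM in both libraries.

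**Figure D5:**
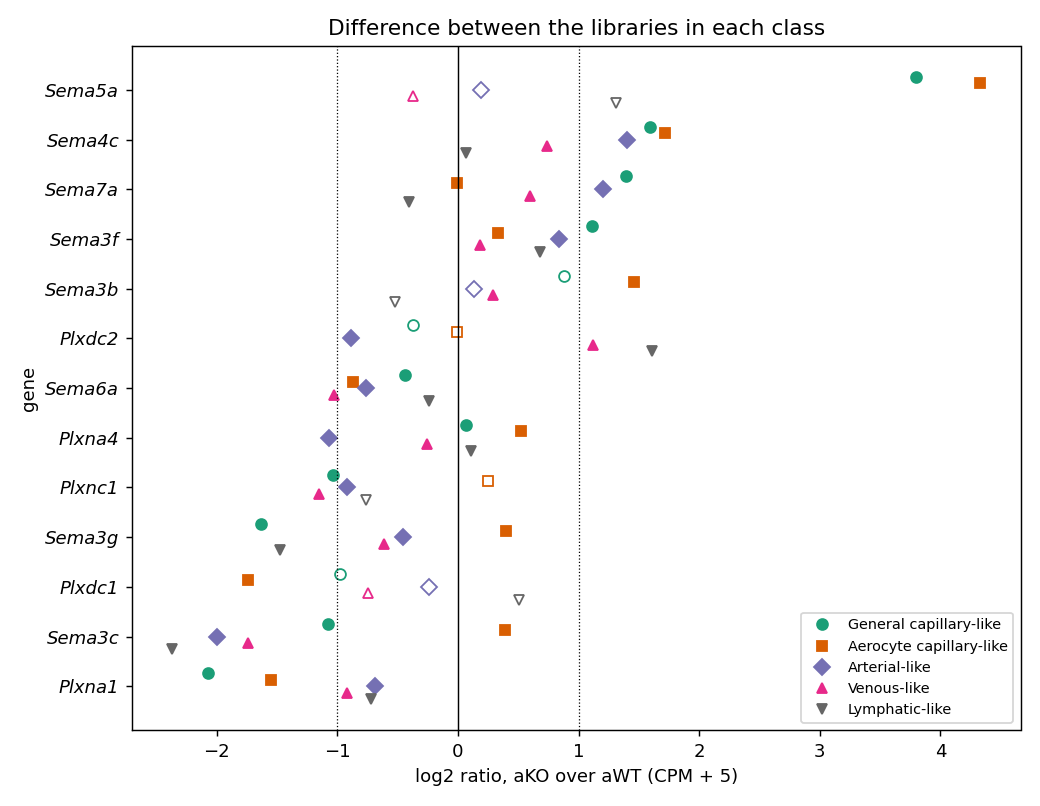
Log2 ratios of aKO over aWT on CPM plus 5 for the 13 members past 2-fold in at least 1 class; symbols are classes, filled where the mean was at least 10 CPM and open below it, and dotted lines mark 2-fold. Sema5a reaches 3.80 and 4.33 in the capillary classes, and Plxna1 lies left of 0 in every class.

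The co-receptors and effectors were read from a list of 54 other genes of the pathway. In all endothelial-like cells 39 were measured, 3 were higher in aKO (Nrp2, Dpysl3 and Mical1) and 1 was lower (Nrp1), with a median log2 ratio of 0.20. Over all genes 4.14% were higher and 2.36% lower, so the count of lower genes was near its share and that of higher genes above it, on few genes. Nrp1, the co-receptor of Sema3a, was at 354 CPM in aKO and 815 CPM in aWT general capillary-like cells (log2 ratio -1.19), and at 1717 CPM in aKO and 2930.4 CPM in aWT aerocyte-like cells (-0.77). In arterial-like cells Nrp1 was at 200.2 CPM in aKO and 720.2 CPM in aWT (-1.82). The aKO value was lower in each of the 5 classes, though in lymphatic-like cells, at 12.2 CPM in aKO and 56.6 CPM in aWT, it was 3.46% in aKO and 6.95% in aWT of the general capillary level. Nrp2, the co-receptor of Sema3f, behaved like the lymphatic ligands: over all endothelial-like cells it was at 330.3 CPM in aKO and 106 CPM in aWT (1.60), but in lymphatic-like cells at 1383 CPM in aKO and 1360.2 CPM in aWT (0.02). Dpysl3, a CRMP family protein of the semaphorin response, was at 219 CPM in aKO and 46.2 CPM in aWT arterial-like cells (2.13), and Mical1, an oxidase that disassembles actin downstream of plexins, was at 17.8 CPM in aKO and 5.85 CPM in aWT over all endothelial-like cells (1.07). In single classes between 34 and 40 of the 54 genes were measured and at most 3 passed 2-fold in either direction. In general capillary-like cells these were 1 of 34 in each direction (Rras higher, Nrp1 lower), near the 2.38% and 2.34% of all genes. Arterial-like cells had 3 of 38 higher and 3 lower (2.94% and 2.83% of all genes). Venous-like cells had 3 of 37 higher and 2 lower (4.59% and 2.86%). Aerocyte-like cells had 1 of 34 higher and 0 lower (2.17% and 1.27%), and lymphatic-like cells 0 of 40 higher and 1 lower (0.978% and 1.47%).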

How the data were processed

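Sorted lung cells of 1 aKO and 1 aWT library were measured with 10x 3′ chemistry; groups follow the sample titles. The authors deposited raw UMI counts, which are whole numbers for each barcode and gene. Per the submitters' processing notes, Cell Ranger 7.2.0 and build mm10 were used. Sources used here do not give the annotation release or say if introns were counted.

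Barcodes under 500 genes or over 15% mitochondrial UMIs were dropped. Scrublet, at an expected rate of 0.8% per 1000 barcodes, removed 370 aKO (3.43%, expected 8.84) and 787 aWT barcodes (5.03%, expected 12.8), so doublets may remain. Cells were scaled to 10000 counts and clustered (2000 variable genes, 30 components, 15 neighbours, resolution 1, no integration) with scanpy 1.11.5 and leidenalg 0.10.2. Endothelial-like cells had UMIs of at least 3 of 14 pan-endothelial markers. The share of these detected also had to exceed that of each alveolar type 2, airway, fibroblast, mural, mesothelial, immune and platelet list. A class needed the highest score for its markers, at least 0.1 and 0.1 above the next, a rule set after clusters were seen. UMIs were summed per class and library with Python 3.11.15, numpy 2.4.6, scipy 1.17.1 and pandas 2.3.3. Clusters were named by the class of most of their cells; a cluster needed 40 cells of a library for a value.

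Values are given for every member at a mean of 10 CPM, in full for those past 2-fold in all endothelial-like cells or in a class, and by range for the rest. Members and gene lists were chosen with earlier results of these data known. The class and size rules were run on simulated data. Simulated cells had equal depth and evenly raised markers, and simulated counts had counting error only. The real data differ in this, so the simulation does not give the error of the rules here. Gene spans are GENCODE M21 and promoter windows RefSeq, both on GRCm38. Alternatives used R 4.3.3 with edgeR 4.0.16 for TMM factors only, and figures matplotlib 3.10.9.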

Additional observations from a re-analysis of the deposited data

Results flagged for a closer look

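Plxdc2 had opposite differences in different classes: its log2 ratio of aKO over aWT was 1.61 in lymphatic-like and 1.12 in venous-like cells, but -0.89 in arterial-like cells. With 1 library of each kind the difference between classes was not tested.

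The few barcodes that were not endothelial-like, 80 in aKO and 217 in aWT, were not used in the comparisons, and 4 members had higher levels there in aKO. Plxdc2 was at 571.0 CPM in aKO and 129.0 CPM in aWT. Sema3d was at 109.0 CPM in aKO and 31 CPM in aWT. Sema3a was at 61.1 CPM in aKO and 25.6 CPM in aWT. Sema4c was at 20.9 CPM in aKO (13 UMIs) and 4.97 CPM in aWT (13 UMIs). These barcodes are a mixture of cell types whose makeup differed between the libraries.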

How the results depend on the processing

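Of 34 member ratios past 2-fold, 22 stayed past it under every alternative run for them. Those alternatives gave 335 values, of which 319 were past 2-fold, 1 of them in the other direction, and 2 changed sign. Settings of the minimum CPM entered only the counts below, not these ratios. Shared clusters were run only for the arterial-, venous- and lymphatic-like classes, so no capillary ratio was read in them. The sign changed for Sema3d over all endothelial-like cells with equal class weights (-0.10) and for Sema3c in venous-like cells of clusters shared by both libraries (1.27). Members past 2-fold in all endothelial-like cells numbered 3 higher and 3 lower at a minimum of 50 CPM, and 2 higher and 3 lower with equal class weights. The same minimum left 1 higher in aerocyte-like, 1 higher in arterial-like, 0 higher in venous-like and 1 lower in lymphatic-like cells. In arterial-like cells 1 was higher with doublets kept and 0 in shared clusters, while 1 was lower by the mean over cells or after thinning and 4 with a pseudocount of 1 CPM or in shared clusters. Shared clusters gave 4 higher in venous-like cells. In lymphatic-like cells 2 were higher with no minimum or after thinning. The share of cells with a Sema5a UMI was 18.4% without thinning and 7.05% at 1000 UMIs in aKO general capillary-like cells, and 0.120% at 1000 UMIs in those of aWT. In aerocyte-like cells it was 30.8% without thinning and 12.7% at 1000 UMIs in aKO, and 0.253% at 1000 UMIs in aWT. The causes of these shifts were not tested, except that fewer cells or genes enter shared clusters and a higher minimum.

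The shared clusters, the addition of unclassed cells to the general capillary-like class and the removal of cluster 17 were chosen after seeing the data. No paired analysis was possible because each group is 1 library, and for the same reason no replicate could be left out. Depth limits what can be said of members under 10 CPM, and single differences cannot be told apart from differences between 2 libraries, animals or sexes.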

Other observations

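Sema5a and Sema3a UMIs of aWT were also found in cluster 17, and the number of cells that held them was not counted. Cluster 17, a cluster of 298 cells led by immune and alveolar type 1 genes, had 12.8 CPM of Sema5a in aKO (5 UMIs) and 70.5 CPM in aWT (25 UMIs). For Sema3a the cluster had 0 UMIs in aKO and 61 UMIs, or 172 CPM, in aWT. Unclassed endothelial-like cells had 57.1 CPM of Sema5a in aKO and 20.0 CPM in aWT, and 123 CPM of Sema4c in aKO and 22.2 CPM in aWT. Sema7a in the same cells was at 158 CPM in aKO and 42.2 CPM in aWT, and Sema3c at 751 CPM in aKO and 1735 CPM in aWT. For these 4 genes the unclassed cells thus had the same order of libraries as the general capillary-like cells.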
